A study of Mus musculus with 19 samples.

Results

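Among 19 arrays of mouse spleen RNA, 13 came from spleens of tumour-bearing mice, and these were chosen by their label and divided by their measured level of Ank1, the gene for ankyrin 1, which ties the red cell membrane to its skeleton. An array with a log2 value of 9.5 or more on the brighter of the 2 Ank1 probe sets was called Ank1-high and any other Ank1-low, which gave 8 high and 5 low arrays. Every tumour mouse carried HGAL, an adaptor protein that germinal centre B cells use in signalling, at the Rosa26 locus together with 1 of 3 Cre lines: Aid-Cre (2 high and 2 low arrays), Mb1-Cre (4 high and 1 low) or Sca1-Cre (2 high and 2 low). Aid-Cre is active in germinal centre B cells. Mb1-Cre is named for Cd79a, which is expressed in the B lineage, and Sca1-Cre for Ly6a, a marker of blood stem cells and progenitors. The 6 arrays outside the rule were 3 Sca1-Cre HGAL spleens from mice still without tumours (pre-tumour) and 3 spleens of wild-type mice, and no array of Cre-only or HGAL-only mice was analysed here. RNA came from total spleen of animals kept in conventional housing with exposure to common pathogens, and no label gives their age.

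The mouse spleen, unlike the adult human one, makes red cells as well as hosting lymphocytes. Erythroid precursors divide several times under erythropoietin and its receptor while Gata1 and Klf1 switch on globin, haem and membrane genes, and then leave the cell cycle and lose their nucleus. A spleen rich in erythroblasts therefore carries RNA of red cell genes and of dividing cells side by side with RNA of B cells, T cells and granulocytes. In bulk RNA, fewer cells of a type and less RNA per cell cannot be told apart.

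Ank1 ran from 9.69 to 11.43 in the 8 high arrays, with a median of 10.79. The low arrays stood at 7.54 (Aid-Cre replicate 3), 9.11 (Aid-Cre replicate 4), 7.64 (Mb1-Cre replicate 1), 7.82 (Sca1-Cre replicate 1) and 8.09 (Sca1-Cre replicate 4). The member just inside the threshold was Sca1-Cre replicate 3 at 9.69, and the nearest below it was Aid-Cre replicate 4 at 9.11. Wild-type spleens reached 9.92, 9.41 and 10.41, so they lay on both sides of the same value, and the pre-tumour spleens held 6.68, 7.93 and 8.94.

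The label fits the measured red cell markers. Klf1, the master activator of red cell genes, ran from 8.61 to 10.52 in the high arrays (median 9.59), against 6.08, 6.89, 5.60, 6.04 and 6.47 in the low arrays in the order given for Ank1. Gata1, the lineage's central transcription factor, spanned 8.02 to 9.78 in the high arrays (median 8.91) and 6.34 to 7.12 in the low ones. Slc4a1, the band 3 anion exchanger, spanned 11.77 to 12.89 and 10.36 to 11.53. Epor, the erythropoietin receptor, spanned 7.28 to 9.22 and 5.70 to 7.01. None of these 4 genes overlapped between the high and the low arrays, and all of them define or follow the dividing line, so no test is given for them.

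Over 3 lists of red cell genes, 92 of 111 listed genes had a probe set with a single symbol. The median member was 2.25 log2 units higher in the high arrays for the 29 membrane and cytoskeleton genes, 1.55 for the 25 genes of haem, globin and iron supply, and 1.80 for the 38 regulators and maturation genes. Sptb (beta spectrin) averaged 10.90 ± 0.60 (SD, n = 8) in the high and 8.25 ± 0.68 (SD, n = 5) in the low arrays. Aqp1, a water channel of the red cell membrane, averaged 10.25 ± 0.56 and 7.32 ± 0.57, and Urod, an enzyme of haem synthesis, 10.28 ± 0.57 and 8.09 ± 0.28. The separation held inside every Cre line, where the membrane list differed by a median of 2.41 in Aid-Cre, 2.62 in Mb1-Cre and 1.65 in Sca1-Cre. These genes are the axis of the split and are not a result of it.

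**Figure D1:**
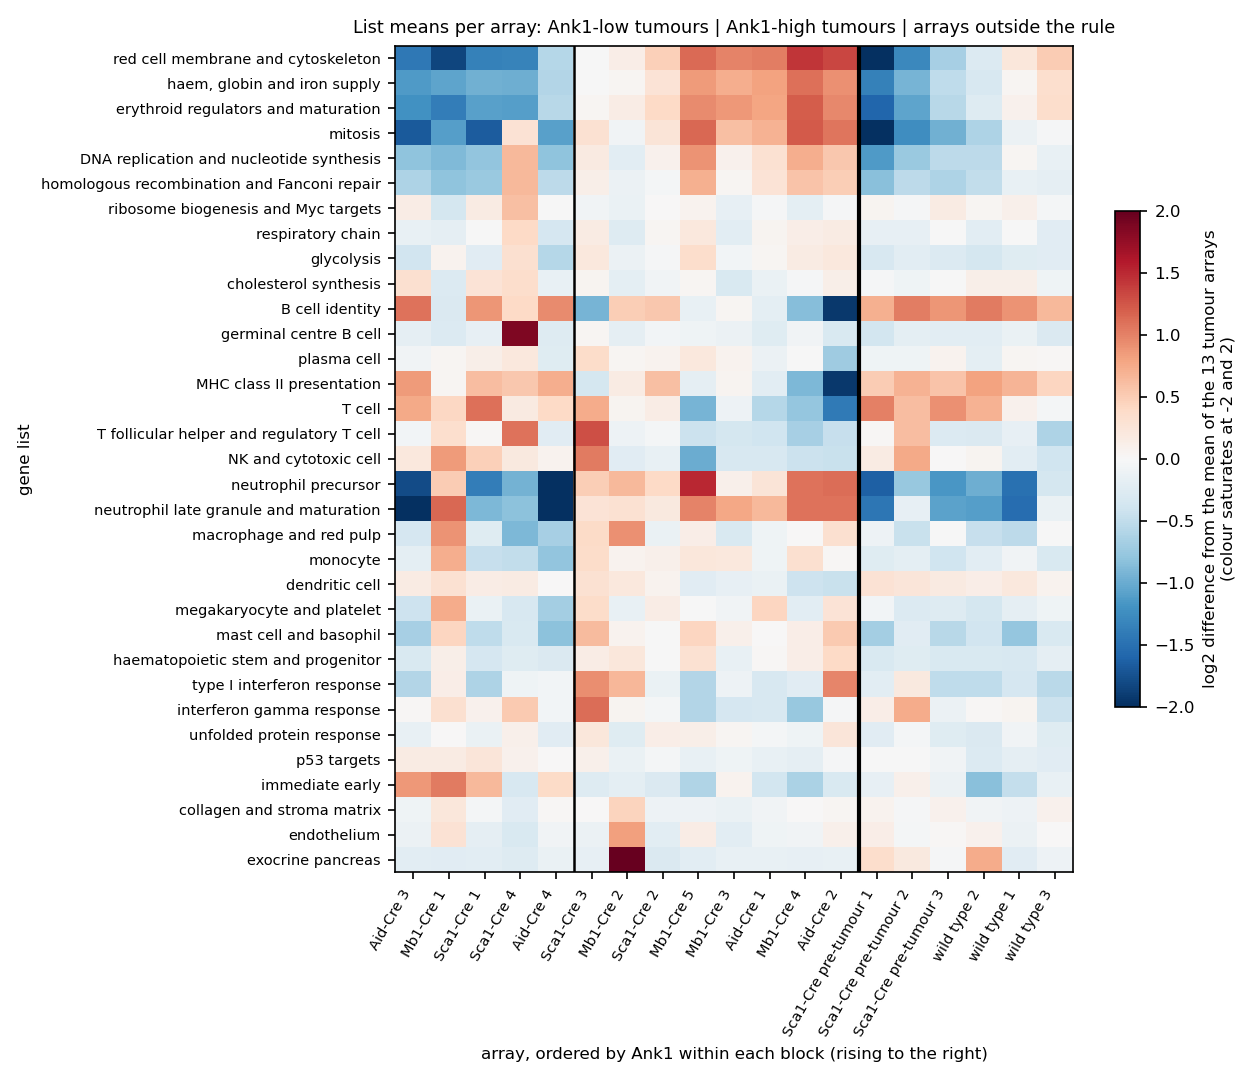
Mean log2 level of each gene list in each array, as the difference from the mean of the 13 tumour arrays (colour, log2 units, saturating at -2 and 2); columns are ordered by Ank1 within the 5 low, the 8 high and the 6 outside arrays. The mitosis and neutrophil rows are mostly blue on the low side and red on the high side, the T cell row runs the other way, and Sca1-Cre replicate 4 stands out in the germinal centre row at 8.84 against 6.69 to 6.80 in the other low arrays.

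All other genes were compared between the 8 high and 5 low arrays with limma, with Cre line in the fit. A gene counts as called where its p, adjusted by Benjamini-Hochberg over 22180 genes, is under 0.05. The arrays were divided by a value measured on themselves, so a call says that a gene varied with the split among these 13 spleens. Of all genes, 733 (3.3%) were called higher and 437 (1.97%) lower in the high arrays, 5.28% in all. High and low arrays did not overlap for 2.12% of all genes on the higher and 1.12% on the lower side. At an unadjusted p under 0.05 by limma, 1961 of the 22180 genes were higher and 2920 lower. Outside the red cell lists 647 genes were called higher, and this count still holds red cell genes that the lists left out. Without Cre line in the fit, the counts were 1009 higher (4.55%) and 912 lower (4.11%), with 705 and 400 genes shared with the fit that holds it. With Ank1 as a continuous term in place of the threshold, 5.33% were called higher and 5.56% lower, and without the 5 Mb1-Cre arrays 2.8% and 0.974%. The median difference over all genes was -0.02, with 54.7% of genes below 0. The counts rest on few arrays: 348 genes were called higher and 46 lower in every one of the 13 fits that left out 1 array. Without Sca1-Cre replicate 4 they rose to 975 higher and 689 lower, and without Aid-Cre replicate 3 they fell to 367 and 62. Without Mb1-Cre replicate 1 every Mb1-Cre array left is high, so the differences in that fit come from Aid-Cre and Sca1-Cre alone. They equal the differences without the Mb1-Cre line, so these 2 fits are not separate checks.

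Genes of cell division were higher as a block. All 39 measured mitosis genes were higher in the Ank1-high arrays, against 45.3% of all genes. Of them 30 were called higher (76.9%, beside 3.3% of all genes), with a median difference of 1.70. The list mean ran from 8.30 to 9.58 in the high arrays (median 9.01), against 6.68, 7.28, 7.27, 6.69 and 8.65 in the low arrays. The low array at 8.65 was Sca1-Cre replicate 4, and the other 4 low arrays lay below every high array. Within lines the median difference was 2.33 in Aid-Cre, 1.76 in Mb1-Cre and 1.00 in Sca1-Cre, and all 39 genes were higher within each. In 2 of the 3 lines this rests on 1 low array. Mb1-Cre has only replicate 1. In Sca1-Cre the high arrays held list means of 8.62 and 8.66, level with replicate 4, and only replicate 1 was below them at 6.69.

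Ube2c, which loads ubiquitin for the complex that ends mitosis, ran from 9.90 to 11.17 in the high arrays (median 10.45). Its low arrays held 7.99, 8.65, 8.76, 8.57 and 9.10, below every high array. The difference was 1.67 ± 0.24 (SE), a 3.17-fold change, at an adjusted p of 0.0035. Nusap1, a spindle microtubule binder, ran from 9.39 to 10.36 (median 9.80) against 7.60, 8.38, 8.29, 7.76 and 8.76, a difference of 1.57 ± 0.22 at an adjusted p of 0.0035. Dlgap5, which stabilises spindle fibres, and Ect2, which drives the furrow that splits the cell, differed by 1.84 ± 0.32 (adjusted p 0.0089) and 2.04 ± 0.36 (adjusted p 0.0093). High and low arrays did not overlap for any of these 4 genes, and each was called in all 13 fits that left out 1 array. The Ect2 call was lost without the Mb1-Cre arrays (adjusted p 0.0652).

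The number of mitosis genes called depended on single arrays although their direction did not. High and low arrays did not overlap for 7 of the 39, beside 2.12% of all genes on the higher side. The count of called genes was 10, 11, 10 and 12 without Aid-Cre replicates 1, 2, 3 and 4, 12 without Mb1-Cre replicate 1, 18 without Sca1-Cre replicate 1 and 39 without Sca1-Cre replicate 4. In the 8 arrays left without the Mb1-Cre line 3 were called, where the median difference was 1.65. In the 6 arrays outside the rule the list mean had the same order as Ank1, at 6.05, 7.12 and 7.40 in the 3 pre-tumour and 8.24, 7.74 and 8.34 in the 3 wild-type spleens.

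**Figure D2:**
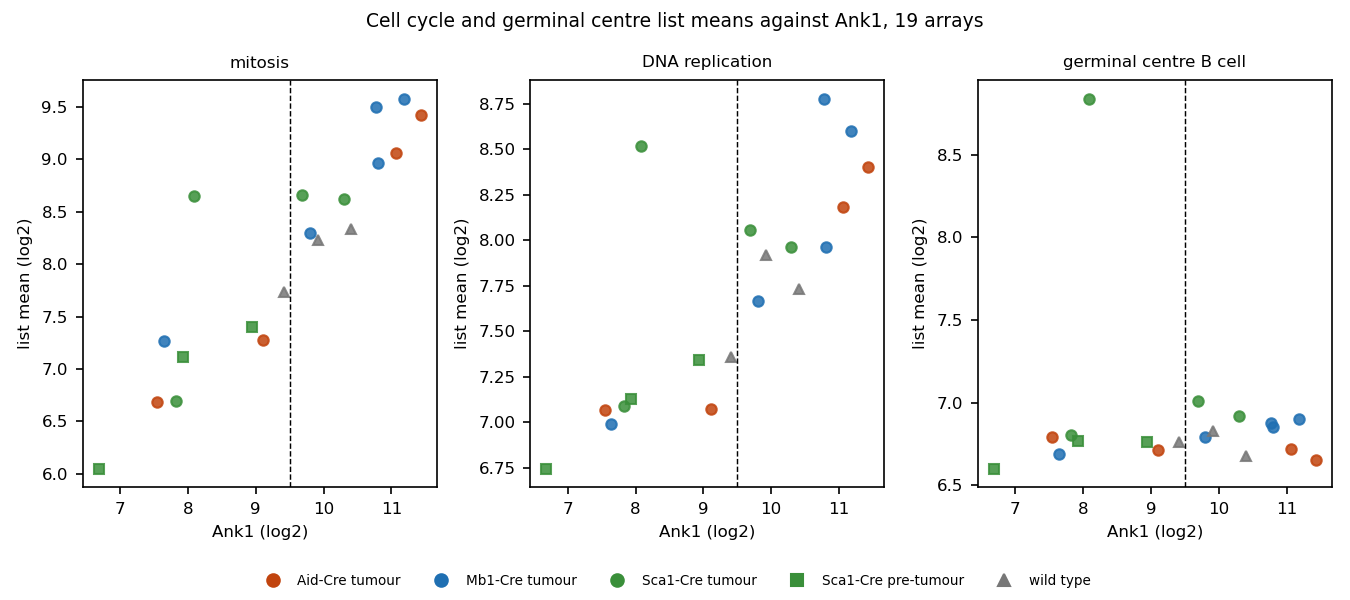
Mean log2 level of the mitosis, DNA replication and germinal centre B cell lists (vertical axes) against log2 Ank1 (horizontal axes), 1 point per array for all 19 arrays, coloured by Cre line; the dashed line is the threshold of 9.5. Sca1-Cre replicate 4, at an Ank1 of 8.09, lies apart from the other low arrays in all 3 panels, with list means of 8.65, 8.52 and 8.84.

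Promoter sequence is shown for 1 red cell gene and 2 mitosis genes, because red cell genes are classically driven through GATA sites and mitotic genes through paired CCAAT boxes and a cell cycle homology region. The stretches are the 150 bases before the annotated start, 5′ to 3′ on the gene's strand, from RefSeq in the build GRCm38.p6. Capitals mark a motif on either strand. The GATA motif searched was AGATAA. The cell cycle homology region was searched as TTTGAA. The third motif was CCAAT. Epor lies on the minus strand at chr9:21963577-21963726, Ube2c on the plus strand at chr2:164769779-164769928 and Nusap1 on the plus strand at chr2:119618148-119618297.
Epor: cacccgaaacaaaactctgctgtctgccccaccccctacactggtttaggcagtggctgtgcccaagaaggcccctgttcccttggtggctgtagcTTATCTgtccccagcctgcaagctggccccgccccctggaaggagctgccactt
Ube2c: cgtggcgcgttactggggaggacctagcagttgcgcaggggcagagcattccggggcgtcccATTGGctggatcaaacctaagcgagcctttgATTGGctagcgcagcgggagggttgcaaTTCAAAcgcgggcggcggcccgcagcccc
Nusap1: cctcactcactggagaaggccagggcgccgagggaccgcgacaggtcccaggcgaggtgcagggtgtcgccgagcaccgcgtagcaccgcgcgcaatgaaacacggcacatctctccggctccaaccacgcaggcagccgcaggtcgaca

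Epor carries 1 GATA match that begins 54 bases before the start. Ube2c carries CCAAT matches at 88 and 57 bases and a homology region match at 29 bases before the start, all on the opposite strand. Nusap1, whose difference between the arrays was of similar size, has none of the 3 motifs in this stretch. Over the 250 bases before the start, CCAAT was present in 75.0% of the 32 mitosis genes in the table, against 37.5% of all 27025 genes. TTTGAA was present in 37.5% and 18.3%, and AGATAA in 18.1% of 72 red cell genes against 11.4% of all. A match is only a run of letters and does not show that a factor binds there.

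DNA replication genes leaned the same way with fewer calls. Of 41 measured members 39 were higher, 7 were called higher (17.1%, beside 3.3% of all genes), and the median difference was 0.89. The list mean ran from 7.67 to 8.78 in the high arrays (median 8.12) and was 7.07, 7.08, 6.99, 7.09 and 8.52 in the low ones, the last again Sca1-Cre replicate 4. E2f8, an S phase transcription factor, ran from 8.43 to 9.89 (median 9.20) against 6.37, 6.93, 7.19, 5.94 and 8.11. It differed by 2.22 ± 0.36 (adjusted p 0.0059) and did not overlap, although the call was lost without the Mb1-Cre arrays (adjusted p 0.0551). Rrm2, which makes deoxynucleotides, differed by 2.21 ± 0.39 (adjusted p 0.0093), with high arrays from 8.75 and Sca1-Cre replicate 4 at 8.96.

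Without Sca1-Cre replicate 4, 31 of the 41 replication genes were called higher, beside 4.4% of all genes. The count was 2 without Mb1-Cre replicate 1, 3 without any 1 of the 4 Aid-Cre arrays and 4 without Sca1-Cre replicate 1. Within lines the median was 1.27 in Aid-Cre and 1.22 in Mb1-Cre but 0.12 in Sca1-Cre, the line of replicate 4, and no replication gene passed the test of a difference between lines.

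Homologous recombination and Fanconi repair genes, which act on broken and stalled replication forks, had a median difference of 0.70, with 20 of 21 higher. Among them 2 were called higher (9.52%, beside 3.3% of all genes). Blm, a helicase of recombination intermediates, was called at 1.65 ± 0.37 (adjusted p 0.0296), and Brca2, which loads the recombinase, at 1.16 ± 0.30 (adjusted p 0.0463), in 3 of the 13 fits. The Blm call was lost without any 1 of the 4 Aid-Cre arrays, Mb1-Cre replicate 1 or Sca1-Cre replicate 1 (adjusted p up to 0.0899) and without the Mb1-Cre line (0.115). Without Sca1-Cre replicate 4, 15 of the 21 genes were called higher, beside 4.4% of all genes. Without any 1 of the Aid-Cre arrays, Mb1-Cre replicate 1 or Sca1-Cre replicate 1, none was called by limma. At an unadjusted p under 0.05 the full fit had 11 higher and 0 lower, beside 1961 and 2920 of all 22180 genes.

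Lists of growth and metabolism had medians nearer to 0. Of 27 ribosome biogenesis and Myc target genes 9 were higher and the median was -0.18. Called were 0 higher and 1 lower (3.7%, beside 1.97% of all genes). The single call there was Myc itself, a driver of cell growth, which was lower at 8.22 to 9.03 in the high arrays (median 8.52) against 9.95, 10.06, 9.33, 9.39 and 8.77, a difference of -0.92 ± 0.19 (adjusted p 0.018) that was lost without any 1 of the 4 Aid-Cre arrays (adjusted p up to 0.0605). The list held 4 genes called lower without Mb1-Cre replicate 1, beside 1.69% of all genes. It held 2 without Sca1-Cre replicate 1 or without the Mb1-Cre line, beside 330 and 216 of 22180 genes. Limma called none of the 26 respiratory chain genes (median 0.15) or of the 16 cholesterol synthesis genes (median -0.20). At an unadjusted p under 0.05, 3 and 1 of them were higher and 1 and 5 lower. Of all 22180 genes, 1961 were higher and 2920 lower at that cutoff. Of 16 glycolysis genes, 1 was called higher (6.25%, beside 3.3% of all genes). This was Hk1, the hexokinase of red cells among other tissues, at 1.07 ± 0.21 (adjusted p 0.0159 by limma). The call was lost without Aid-Cre replicate 3 (0.0517) or 4 (0.0502). The glycolysis median of 0.18 became 0.05 without Aid-Cre replicate 2 or Sca1-Cre replicate 1 and 0.36 without Sca1-Cre replicate 4.

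Granulocyte genes were the second group with calls on the higher side. Here the difference varied between Cre lines, but Mb1-Cre has 1 low array, so line and that spleen cannot be told apart. Of 14 genes of neutrophil precursors, which fill the primary granules, 13 were higher and 7 were called, with a median of 1.72. Of 27 late granule and maturation genes, 26 were higher and 8 were called higher (29.6%, beside the same 3.3%), with a median of 1.67. The precursor count was 12 without Mb1-Cre replicate 1, beside 3.15% of all genes called higher. It was 3 or 4 without any 1 of the Aid-Cre arrays, Sca1-Cre replicate 1 or Sca1-Cre replicate 3. In those last fits 367 to 616 of 22180 genes were called higher. The late list ran from 9.29 to 10.18 in the high arrays (median 9.80), and the low arrays stood at 6.75, 6.63, 10.24, 8.20 and 8.27. The high arrays were thus alike, and the low arrays were spread over more than the whole range of the high ones, since Mb1-Cre replicate 1 had the highest level of all 13.

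Elane, neutrophil elastase, ran from 8.41 to 11.49 in the high arrays (median 9.81) against 5.87, 5.84, 8.51, 6.19 and 6.72, a difference of 2.74 ± 0.50, or 6.69-fold (adjusted p 0.0106). Mpo, the peroxidase of the same granules, ran from 8.57 to 11.14 (median 9.81) against 5.64, 5.96, 8.93, 6.32 and 7.04, a difference of 2.79 ± 0.53 (adjusted p 0.0139). Both overlapped only through Mb1-Cre replicate 1, and both were called in all 13 fits that left out 1 array. Without the 2 arrays nearest the threshold both calls were lost (adjusted p 0.0693 for Elane and 0.0867 for Mpo). Fcnb, a granule lectin, differed by 1.71 ± 0.29 (adjusted p 0.0074) and was also called in all 13 fits. Prtn3, proteinase 3, was called at 2.05 ± 0.43 (adjusted p 0.0213) and was lost without Aid-Cre replicate 3 or 4 (adjusted p up to 0.0678).

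Genes of mature neutrophils varied more among the low arrays. Ly6g, the surface marker used to sort mouse neutrophils, ran from 8.43 to 10.76 in the high arrays (median 9.65) against 4.28, 4.02, 9.90, 6.87 and 7.59. Its difference was 2.41 ± 0.52 (adjusted p 0.0252), lost without any 1 of the Aid-Cre arrays or Sca1-Cre replicate 3 (adjusted p up to 0.0785). Ltf, lactoferrin of the secondary granules, stood at 11.74 to 12.66 against 6.76, 7.98, 12.56, 9.40 and 10.52, and its difference of 2.30 ± 0.64 was not called (adjusted p 0.059), while without Mb1-Cre replicate 1 it was 3.33 ± 0.53 and called (adjusted p 0.0115).

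The difference between lines was tested by itself, by a moderated F-test in limma over the terms of split and line. It passed for 34 of 22180 genes (0.153%), and 13 of these were late neutrophil genes. Mmp9, a matrix protease of neutrophil granules, differed by 3.90 in Aid-Cre, 1.62 in Sca1-Cre and -0.33 in Mb1-Cre (adjusted p 0.004). S100a8, a chain of the calprotectin dimer, differed by 3.67, 1.14 and -0.19 (adjusted p 0.0096), and Mmp8 by 5.15, 1.95 and -0.08 (adjusted p 0.0128). In 33 of the 34 genes the Mb1-Cre difference was below both others. That line has a single low array, replicate 1, and the test could not be fitted without it. The count of 34 was 4 without Aid-Cre replicate 3, 5 without Aid-Cre replicate 2 or 4, 9 to 13 without Mb1-Cre replicate 3, 4 or 5 or Sca1-Cre replicate 3, 52 without Aid-Cre replicate 1 and 138 without Sca1-Cre replicate 1. Without Mb1-Cre replicate 1, 18 of the 27 late genes were called higher in the comparison of high with low, beside 3.15% of all genes called higher and 1.69% lower. The late count was 0 without Aid-Cre replicate 3, 1 without each of the other Aid-Cre arrays, and 2 to 4 without Mb1-Cre replicate 4 or 5 or Sca1-Cre replicate 1, 2 or 3.

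Unlike the mitosis list, the late neutrophil list did not follow Ank1 in the arrays outside the rule. Pre-tumour replicate 2, with an Ank1 of 7.93, held 8.93, close to wild type replicate 3 at 8.97 with an Ank1 of 10.41, and the remaining 4 held 7.65, 8.03, 7.57 and 7.99. All 6 were below the lowest high tumour array.

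**Figure D3:**
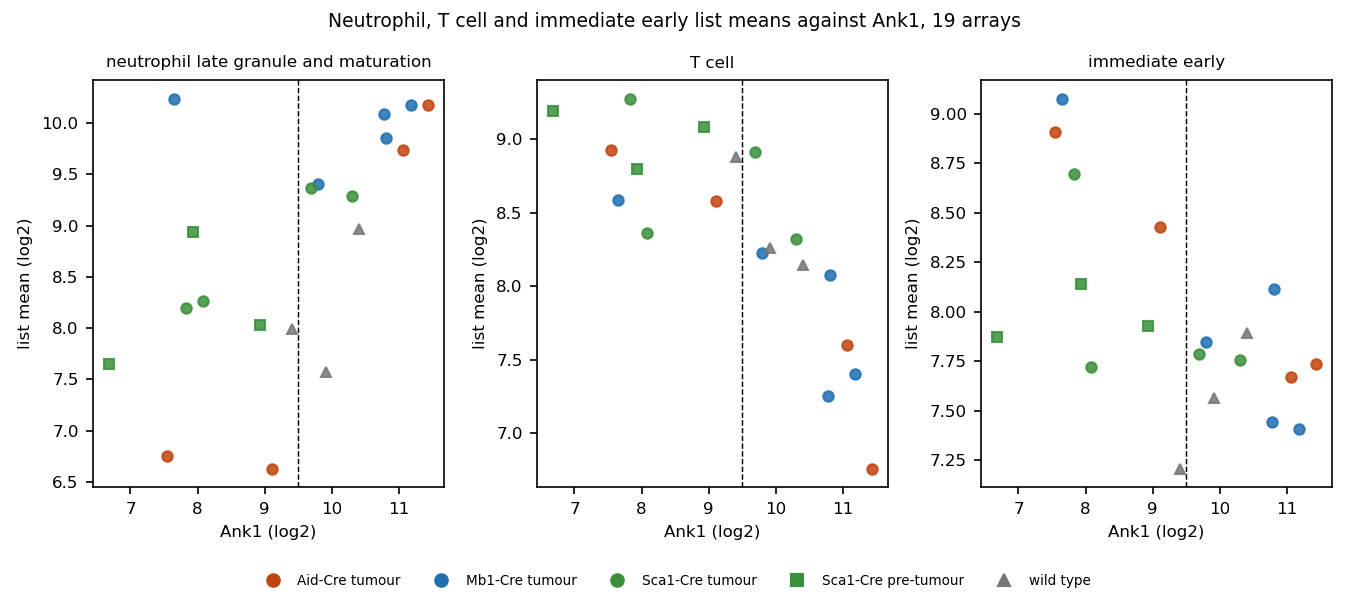
Mean log2 level of the late neutrophil, T cell and immediate early lists (vertical axes) against log2 Ank1 (horizontal axes), 1 point per array for all 19 arrays, coloured by Cre line; the dashed line is the threshold of 9.5. Low arrays spread from 6.63 to 10.24 for the neutrophil list, the T cell list is lower on the right, and 4 of the 5 low tumours (8.43 to 9.08) lie above all other arrays for the immediate early list.

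Other myeloid and progenitor lists had few calls, and several depended on Mb1-Cre replicate 1. Of 26 macrophage and red pulp genes 23 were higher with a median of 0.21 and none called by limma (0 at an unadjusted p under 0.05 in either direction). Their median was 0.58 in Aid-Cre, 0.67 in Sca1-Cre and -0.60 in Mb1-Cre. It was 0.63 without Mb1-Cre replicate 1, where only Aid-Cre and Sca1-Cre hold both high and low arrays. The 14 monocyte genes had a median of 0.27, and 0.50 without that array. In each direction 1 of them was called (7.14%, beside 3.3% of all genes called higher and 1.97% lower). Among them Ly6c2, which is carried by inflammatory monocytes, was called higher at 0.71 ± 0.19 (adjusted p 0.0488), a call kept only without Mb1-Cre replicate 1 or 3 among the 13 fits. Nr4a1, also an immediate early gene, was called lower there. The monocyte list had 6 genes called higher without Mb1-Cre replicate 1 and 3 without Mb1-Cre replicate 2, beside 3.15% and 4.07% of all genes. Of 16 dendritic cell genes 1 was called lower (6.25%, beside 1.97% of all genes). This was Ccr9 at -0.67 ± 0.16 (adjusted p 0.0349 by limma), in 4 of the 13 fits. Its signal was low, at 4.44 to 5.12 in the high and 5.06 to 5.83 in the low arrays, beside array medians of 5.23 to 5.40. The list median of -0.37 became -0.18 without Mb1-Cre replicate 1. The 21 megakaryocyte and platelet genes had a median of 0.32, which was 0.13 without Aid-Cre replicate 1 and 0.67 without Mb1-Cre replicate 1. None was called higher or lower (3 and 0 at an unadjusted p under 0.05, beside 1961 and 2920 of 22180 genes). Yet 3 passed the test between lines, beside 0.153% of all genes. Without Mb1-Cre replicate 1, 9 were called higher, beside 3.15% of all genes. Pf4, a platelet chemokine, differed by 1.64 in Aid-Cre, 0.76 in Sca1-Cre and -1.21 in Mb1-Cre (adjusted p 0.0293). Erg, a transcription factor of blood stem cells, was the 1 call among 20 stem and progenitor genes (5.0%, beside 3.3% of all genes). It ran from 6.16 to 8.06 in the high arrays (median 7.16) against 4.72, 5.30, 6.60, 5.30 and 4.65. The difference was 1.47 ± 0.27 (adjusted p 0.0113 by limma), called in all 13 fits. The Erg call was lost without the 2 arrays nearest the threshold (adjusted p 0.0709). The 13 mast cell and basophil genes had a median of 0.57, with 9 higher, which was 0.29 without Sca1-Cre replicate 3. At an unadjusted p under 0.05, 7 were higher and 0 lower, beside 1961 and 2920 of all 22180 genes. Prss34, a mast cell and basophil protease, was the 1 call (7.69%, beside 3.3% of all genes), at 1.11 ± 0.29 (adjusted p 0.0494 by limma). It was called in 2 of the 13 fits. Without Mb1-Cre replicate 1, 4 members were called higher, beside 3.15% of all genes.

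Lymphocyte genes had negative differences in most members and few calls. Of 27 B cell identity genes 26 were lower, with a median of -0.99, and none was called by limma. At an unadjusted p under 0.05, 0 were higher and 13 lower, beside 1961 and 2920 of all 22180 genes. Cd79a, which carries the signal of the antigen receptor of B cells, ran from 8.97 to 11.75 in the high arrays (median 10.83) against 12.34, 12.11, 10.03, 12.15 and 11.53 in the low ones (-1.002 ± 0.53, adjusted p 0.304). Both Aid-Cre low arrays and Sca1-Cre replicate 1 were thus above every high array, while Mb1-Cre replicate 1 and Sca1-Cre replicate 4 lay within the range of the high arrays. Pax5, the factor that fixes B cell identity, differed by -1.21 ± 0.58 (adjusted p 0.246). The B cell list differed by -2.23 in Aid-Cre and -0.82 in Sca1-Cre but by 0.12 in Mb1-Cre, and no member passed the test between lines. All 9 MHC class II genes, which present antigen on B cells and dendritic cells, were lower, with a median of -0.88, none called and 7 lower at an unadjusted p under 0.05. Their median was -1.78 in Aid-Cre, -0.33 in Mb1-Cre and -0.47 in Sca1-Cre. The size of both medians rested in part on Aid-Cre replicate 2, without which the B cell list stood at -0.56 and MHC class II at -0.53.

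Germinal centre genes, the programme HGAL belongs to, had a median that rested on 1 array. Of 16 measured, 4 were higher and the median was -0.34, which became -0.0072 without Sca1-Cre replicate 4. The list mean was 6.66 to 7.01 in the high arrays and 6.69 to 6.80 in 4 low arrays, and 8.84 in Sca1-Cre replicate 4. Bcl6, their master repressor, held 7.64 to 8.35 in the high arrays and 8.36, 8.26, 8.64, 8.26 and 9.70 in the low ones (-0.66 ± 0.21, adjusted p 0.085). The 1 call of the list was Lmo2, which is also a red cell gene and belongs to the axis of the split. Without Sca1-Cre replicate 4, 3 members were called higher and 2 lower, beside 4.4% and 3.11% of all genes.

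All 24 T cell genes were lower in the high arrays, with a median of -0.89, and none was called by limma. At an unadjusted p under 0.05, 21 were lower, beside 2920 of all 22180 genes. With Ank1 as a continuous term 18 of the 24 were called lower, beside 5.56% of all genes. Without Cre line in the fit 3 were, beside 4.11%. The list mean ran from 6.76 to 8.92 in the high arrays (median 7.84), and the low arrays held 8.93, 8.58, 8.58, 9.28 and 8.36. Sca1-Cre replicate 3, just above the threshold, was the high array at 8.92. Cd3e, a chain of the T cell receptor complex, spanned 7.97 to 11.24 in the high arrays (median 9.09) against 10.22, 10.25, 10.22, 10.997 and 10.39, a difference of -0.98 ± 0.36 (adjusted p 0.132, with 0.0199 for continuous Ank1 and 0.0459 without Sca1-Cre replicate 3). Il7r, the receptor for the survival factor interleukin 7, differed by -1.10 ± 0.31 (adjusted p 0.0628). The count of 0 became 7 without Sca1-Cre replicate 4, beside 3.11% of all genes called lower. It became 5 without Sca1-Cre replicate 3, beside 232 of 22180 genes, and 1 without Mb1-Cre replicate 2 or 3. Within lines the median was -1.61 in Aid-Cre, -0.87 in Mb1-Cre and -0.11 in Sca1-Cre.

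Of 21 NK and cytotoxic genes all were lower, with a median of -0.42. Gzma was the only call (4.76%, beside 1.97% of all genes called lower). The list median was -0.47 in Aid-Cre and -1.11 in Mb1-Cre but 0.18 in Sca1-Cre, where 12 of the 21 were higher. It was -0.14 without Mb1-Cre replicate 1 and -0.78 without Sca1-Cre replicate 3. Gzma, the granzyme A protease that killer cells release, ran from 4.42 to 7.34 in the high arrays (median 6.56) against 8.39, 8.17, 9.11, 8.93 and 8.35, which were all above every high array. The difference was -2.18 ± 0.43 (adjusted p 0.0153), lost without Mb1-Cre replicate 1 (adjusted p 0.0566). The list held 5 genes called lower without Sca1-Cre replicate 3, beside 232 of 22180 genes. It held 4 without Sca1-Cre replicate 4, beside 3.11% of all genes. For Gzma the 6 arrays outside the rule held 6.08 to 7.81, below all 5 low tumours.

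Immediate early genes, transcription factors switched on within minutes of a signal, were lower in the Ank1-high arrays. Of 18 members 17 were lower, 5 were called lower (27.8%, beside 1.97% of all genes), and the median was -0.92. Fosb ran from 5.59 to 6.99 in the high arrays (median 5.97) against 7.89, 7.46, 7.83, 7.63 and 6.51, a difference of -1.43 ± 0.23 or 2.69-fold (adjusted p 0.0059), called in all 13 fits. Within Aid-Cre, Mb1-Cre and Sca1-Cre it differed by -1.51, -1.46 and -1.33. Pre-tumour and wild-type spleens held 5.45 to 6.78, below the highest Ank1-high array, and 4 of the 5 low tumours were above all of them.

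Nr4a1, which reports receptor signalling in lymphocytes, ran from 7.38 to 8.97 in the high arrays (median 7.94) against 10.79, 10.30, 10.02, 8.86 and 7.86, a difference of -1.71 ± 0.42 (adjusted p 0.0404) called in 5 of the 13 fits. Junb, a partner of Fos, differed by -0.90 ± 0.22 (adjusted p 0.0409), called in 4 of them. Sca1-Cre replicate 4 was the lowest of the low arrays for Fosb, Nr4a1 and Junb. Without it 13 of the 18 genes were called lower, beside 3.11% of all genes. The count was 1 without any 1 of the 4 Aid-Cre arrays, Mb1-Cre replicate 1 or 4, or Sca1-Cre replicate 1, 2 without Mb1-Cre replicate 5 and 3 without Sca1-Cre replicate 2.

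**Figure D4:**
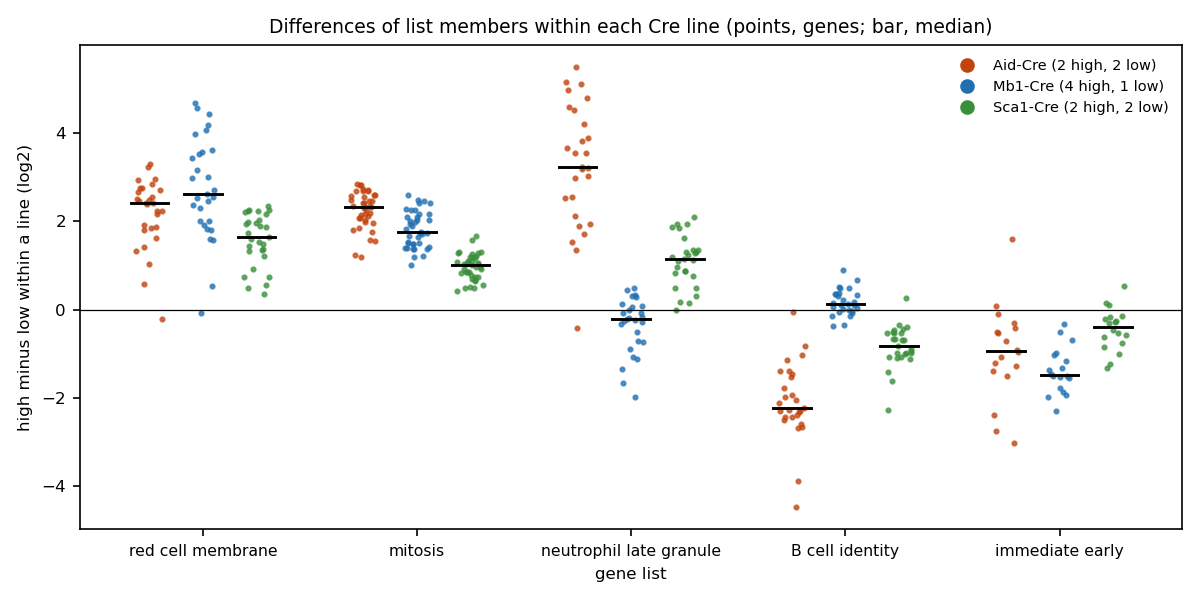
High minus low difference of each member (points, log2 units) of 5 gene lists within each Cre line, with the median as a bar. Mitosis genes are above 0 in every line (medians 2.33, 1.76 and 1.00), in Sca1-Cre through low replicate 1. Neutrophil and B cell genes have medians of -0.20 and 0.12 in Mb1-Cre, whose only low array is replicate 1.

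A few type I interferon genes were called higher. Of 23 members 16 were higher, 4 were called higher (17.4%, beside 3.3% of all genes), and the median was 0.24. The sign of that median rested on single arrays, since it was -0.04 without Aid-Cre replicate 2, 0.0032 without Sca1-Cre replicate 3 and 0.67 without Mb1-Cre replicate 1. Isg15, a ubiquitin-like antiviral protein, ran from 9.29 to 11.45 in the high arrays (median 10.32) against 8.03, 9.06, 8.82, 8.37 and 9.13, a difference of 1.82 ± 0.30 or 3.53-fold (adjusted p 0.0069). Rsad2, also known as viperin, ran from 11.35 to 12.26 (median 11.75) against 10.15, 11.25, 11.003, 10.71 and 10.15, a difference of 1.08 ± 0.20 (adjusted p 0.0107). Neither overlapped, and each was called in all 13 fits, but Rsad2 was lost without the Mb1-Cre arrays (adjusted p 0.0515). Cmpk2, the neighbour gene of Rsad2, was called at 1.48 ± 0.29 (adjusted p 0.015), lost without Aid-Cre replicate 3 (0.0504) or without the Mb1-Cre arrays (0.0528), and Oas3, an antiviral RNA sensor, at 1.30 ± 0.32 (adjusted p 0.0402), in 5 of the 13 fits. The list median was -0.30 within Mb1-Cre and 0.58 within Sca1-Cre. The 6 arrays outside the rule held Isg15 at 8.32 to 9.19, all below the lowest Ank1-high array. Of 20 interferon gamma genes 5 were higher, with a median of -0.31, and none was called by limma. At an unadjusted p under 0.05, 1 of them was higher and 4 were lower, beside 1961 and 2920 of all 22180 genes. Their median was -0.51 without Sca1-Cre replicate 1. Without Sca1-Cre replicate 3 it was -0.55 with 3 called lower, beside 232 of 22180 genes. With continuous Ank1 3 were called lower, beside 5.56% of all genes.

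Stress programmes held single calls only. Of 17 unfolded protein response genes 9 were higher and 8 lower, with a median of 0.07. In each direction 1 was called (5.88%, beside 3.3% of all genes called higher and 1.97% lower). Asns, asparagine synthetase, was the 1 called higher. It ran from 7.96 to 10.34 in the high arrays (median 8.91) against 6.57, 6.19, 6.97, 6.78 and 7.80, a difference of 2.18 ± 0.43 (adjusted p 0.0163), lost without Aid-Cre replicate 3 (0.0542) or 4 (0.0509) and without the Mb1-Cre arrays (0.0587). Dnajb9, a chaperone of the endoplasmic reticulum in the same list of 17 unfolded protein response genes, was called lower at -0.54 ± 0.12 (adjusted p 0.0249), in 9 of the 13 fits. Of 15 p53 targets 11 were lower, with a median of -0.16, and 1 was called lower (6.67%, beside 1.97% of all genes). This was Pmaip1, a death-promoting gene, at -0.89 ± 0.18 (adjusted p 0.0201). Its call was lost without Aid-Cre replicate 2 or 3 or Mb1-Cre replicate 1 (adjusted p up to 0.0692) and without the Mb1-Cre arrays (0.0815).

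Outside all red cell lists, the 12 named genes with the largest rise and no overlap included Ces2g, Fhdc1, Abcg2, Slfn14 and Plek2. Ces2g, a carboxylesterase, ran from 8.07 to 10.57 in the high arrays (median 9.47) against 5.83, 6.90, 5.12, 5.99 and 6.17. The difference was 3.42 ± 0.36 or 10.7-fold. Abcg2, a transporter that exports porphyrins, differed by 2.99 ± 0.39, and Fhdc1, which links actin and microtubules, by 3.01 ± 0.43. Slfn14, which cuts ribosome-bound RNA in late red cell precursors and platelets, differed by 2.94 ± 0.46. Plek2, a membrane and actin adaptor of maturing erythroblasts, differed by 2.58 ± 0.46. At least Abcg2, Slfn14 and Plek2 are known from red cell precursors, although no red cell list here held them. They belong to the axis of the split, and others of the 12 may do the same, so no p-value is given for the 12. The other 7 were Pkhd1l1, Abcb4, Btnl10, Tom1l1, Apol8, Reep6 and the histone gene H2bc9, with differences from 2.58 to 2.97. All 12 were called in all 13 fits, which for red cell genes only restates the split.

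The 12 named genes with the largest fall and no overlap were Gzma, Cd69, Gpr171, Dusp2, Cd40lg, Tgif1, H2-Q10, Stat4, Smad7, Gramd3, Carmil2 and Galnt11. Cd69, an early activation marker of lymphocytes, ran from 7.40 to 9.12 in the high arrays (median 8.52) against 10.83, 10.48, 9.35, 10.44 and 9.58, a difference of -1.67 ± 0.37 (adjusted p 0.0262) lost without any 1 of the 4 Aid-Cre arrays or Sca1-Cre replicate 1 (adjusted p up to 0.0798). Dusp2, a MAP kinase phosphatase of activated lymphocytes, differed by -1.16 ± 0.24 (adjusted p 0.0186), lost without Aid-Cre replicate 3 (0.0624) or 4 (0.0563). Cd40lg, the signal of helper T cells to B cells, differed by -1.16 ± 0.27 (adjusted p 0.0311), called in 7 of the 13 fits. Tgif1 and Smad7, both restraints on TGF-beta signalling, differed by -1.07 ± 0.17 (adjusted p 0.0059) and -0.96 ± 0.18 (adjusted p 0.0133). Of the 12, only these last 2 and Galnt11 were called in all 13 fits, and the Smad7 call was lost without the Mb1-Cre arrays (adjusted p 0.0599). Without the 2 arrays nearest the threshold the calls of Smad7 (adjusted p 0.0794) and Galnt11 (0.0679) were lost. H2-Q10 belongs to a family of near-identical class I genes whose probe signals may not be separable.

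**Figure D5:**
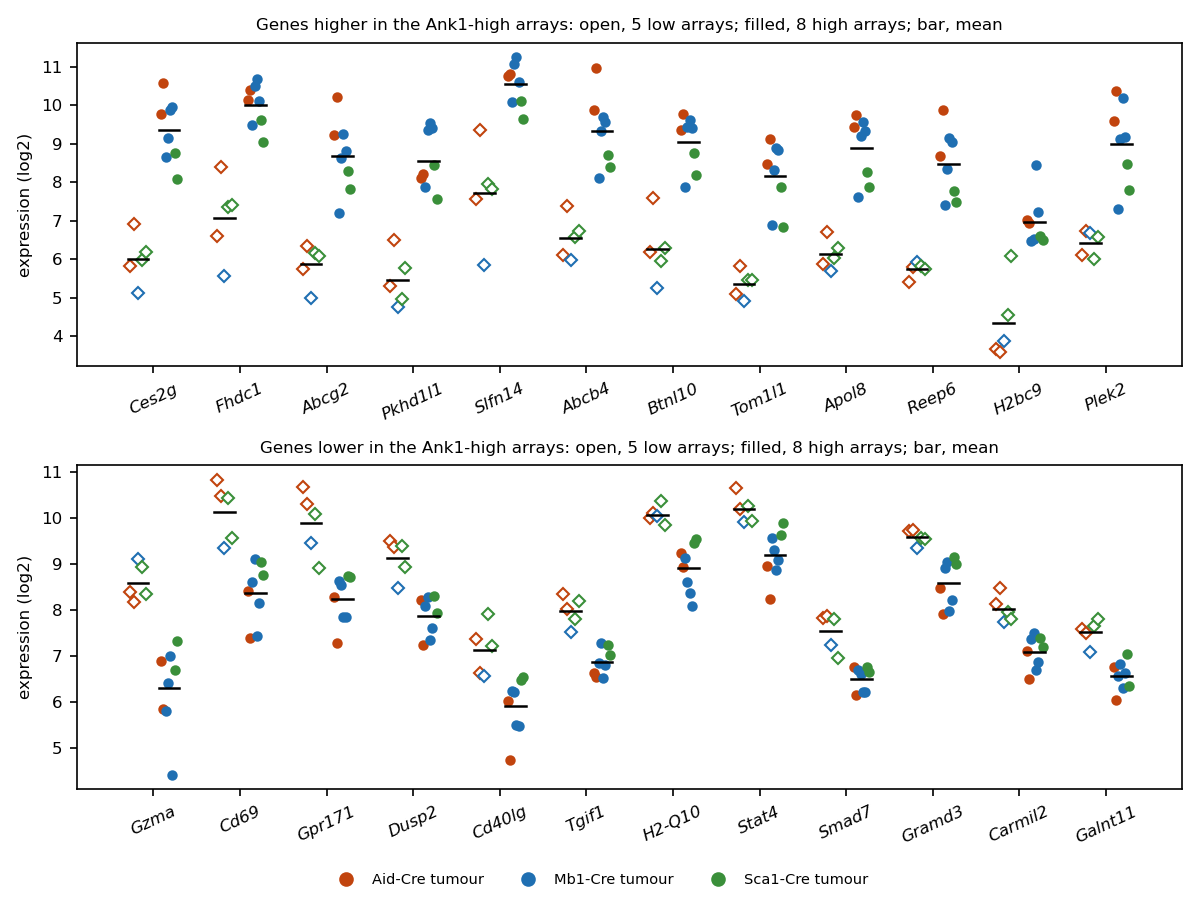
Log2 level of the 12 named genes with the largest rise (upper panel) and the 12 with the largest fall (lower panel) in the 5 low (open) and 8 high (filled) tumour arrays, 1 point per array coloured by Cre line, with the mean of each as a bar. By the naming rule no gene overlaps between high and low arrays, with differences from 2.58 to 3.42 above and from -0.92 to -2.18 below.

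Some array features were spread unevenly over the split. Y-linked signal was present in 5 of 8 high and 2 of 5 low arrays. Exocrine pancreas genes had a list mean of 7.14 in Mb1-Cre replicate 2, a high array, and 4.55 to 4.69 in the other 12 tumour arrays. Without that array 36 of the 39 mitosis genes, 8 of the 14 neutrophil precursor and 9 of the 27 late neutrophil genes were called higher, beside 4.07% of all genes called higher and 2.61% lower. With sex in the fit, 801 genes were called higher and 732 lower.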

How the data were processed

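Total RNA of whole spleens was extracted with Trizol and labelled with biotin, per the labels' protocols. Per the submitters' processing notes, RMA from oligo was used, and the authors deposited log2 values per probe set, which were used unchanged. Quantile normalization within RMA makes array distributions alike, so a gene's value is relative to the rest of its array. No tool version or genome build is given in the submitters' notes used here. Array medians lay between 5.23 and 5.40. Signal over background and the number of arrays limit the precision, and 0 columns were left unused.

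Of 41345 probe sets, 23521 had 1 gene symbol, 1814 several and 16010 none. The brightest probe set stood for a gene, leaving 22180 genes. limma 3.58.1 in R 4.3.3 fitted split and Cre line to the 13 tumour arrays (9 residual and 2.67 prior degrees of freedom), two-sided, and was tested on simulated data. A log2 difference of d is a fold of 2 to the power d. The arrays are labelled as biological replicates, and p-values measure the spread between them. The labels' replicate numbers did not pair the arrays: over 12 same-number pairs, deviations correlated between -0.53 and 0.34.

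Members, gene lists and tests were chosen with earlier results of these data known. Named genes were the red cell genes, up to 12 called genes per direction with the largest difference and no overlap (predicted genes, small RNAs, receptor segments and sex-linked genes left out), up to 4 members of each list with the smallest p, and defining markers. Alternatives were other normalizations, filters, covariates and fits, and leaving out 1 array. Tables used pandas 2.3.3 and figures matplotlib 3.10.9 in Python 3.11.15.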

Additional observations from a re-analysis of the deposited data

Results flagged for a closer look

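In 66 sets of list means, each over the 8 high or the 5 low arrays, 11 had an array far from the others by Dixon's test at the 95% level, where chance marks about 1 in 20. Sca1-Cre replicate 4 stood above the other low arrays for DNA replication (8.52 against 6.99 to 7.09), homologous recombination and Fanconi repair (7.37 against 5.91 to 6.19) and germinal centre genes (8.84 against 6.69 to 6.80). Sca1-Cre replicate 3 stood above the other high arrays for T follicular helper and regulatory T cell genes (7.96 against 6.02 to 6.64), NK and cytotoxic genes (8.22 against 6.19 to 7.04) and interferon gamma genes (8.61 against 6.73 to 7.55). Mb1-Cre replicate 2 stood above them for collagen and stroma (5.95 against 5.36 to 5.55), endothelium (6.33 against 5.30 to 5.66) and exocrine pancreas (7.14 against 4.55 to 4.69). Plasma cell genes were lowest in Aid-Cre replicate 2 (7.40 against 7.998 to 8.48 in the other high arrays), and stem and progenitor genes were highest in Mb1-Cre replicate 1 (6.22 against 5.77 to 5.86 in the other low arrays).

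In the lists of myeloid cells, 1 of 14 neutrophil precursor, 13 of 27 late neutrophil, 3 of 21 megakaryocyte and platelet and 1 of 13 mast cell and basophil genes, held members whose high minus low difference differed between the Cre lines by limma's moderated F-test. For all of them the Mb1-Cre value rests on replicate 1 as its only low array.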

How the results depend on the processing

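The genes called higher (733) and lower (437) kept within 1.5 times of these counts under quantile normalization (780 and 546), median centring (659 and 403), a filter on dim genes (885 and 623), the mean of probe sets (728 and 428) and centring on genes outside the red cell and proliferation lists (829 and 339). They moved with Ank1 as a continuous term (1182 and 1234), the red cell list mean as a continuous term (1225 and 1159), all 19 arrays in the fit (1128 and 1067) and without the 2 arrays nearest the threshold (357 and 55). The lower count alone moved without Cre line (912), with a variance trend and robust settings (269), array weights (974) and sex as a covariate (732), and, added after the data were seen, without the Mb1-Cre arrays (216). With the replicate number as a block, 411 genes were called higher and 106 lower, and since same-number arrays did not deviate together this pairing has no basis in the data. Leaving out 1 array gave 367 to 975 higher and 62 to 689 lower, and 4 to 138 genes that differed between Cre lines, a test that could not be fitted without Mb1-Cre replicate 1. Single genes were followed for those with the largest differences, up to 4 members of most lists and a few defining markers, many of them not named above. None of these changed direction under any alternative. Among them 253 gene and setting pairs lost the call, 229 gained it and 3156 stayed. The pairs that stayed include genes not called in the main fit. The median of the mast cell and basophil list moved to 1.15 under the filter on dim genes, and 923 other list values moved by less than the spread between arrays. With 5 low arrays, 1 of them Mb1-Cre, differences within a line have no replicate check in that line, and genes near background have no exact fold.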

Other observations

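Core and linker histone genes, a group picked by symbol after its values were seen, were higher as a group in the Ank1-high arrays. Of 29 measured, 27 were higher and 13 were called higher by limma, beside 3.3% of all genes, with a median difference of 1.02. Messages of the histone clusters mostly lack the poly(A) tail of other mRNA, which need not hold for every gene picked. The labels describe total RNA. The best placed of them, H2bc9, ran from 6.47 to 8.45 in the high arrays (median 6.78) against 3.66, 3.596, 3.86, 4.56 and 6.07 in the low ones, the last being Sca1-Cre replicate 4.

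Aid-Cre replicate 2, the array with the highest Ank1, had the lowest list means of the 13 tumour arrays for B cell identity (7.46), MHC class II (7.61), T cell (6.76) and plasma cell genes (7.40). Its neutrophil precursor mean (9.67) and type I interferon mean (8.58) were among the highest.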
